A study of Mus musculus with 9 samples.

Results

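Pmaip1 and Eda2r, 2 genes that the transcription factor p53 is known to induce, were followed in RAW264.7, a macrophage-like cell line from a mouse tumour, after transfection with let-7c-5p mimics or a negative control. Both genes were taken by name from a deposited table of 311 genes, so 2 of 311 genes are described, and both passed the filter on low counts that left 149 genes to test. The study addressed macrophage polarization and function under let-7c-5p. Its labels give 4 negative control libraries and 5 libraries of cells transfected with let-7c-5p mimics, all total RNA of this 1 line with its genotype given only as cell line. The labels call the libraries biological replicates, and they state no sequence of the control, no dose and no time after transfection.

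The table is not a full transcriptome. Its log2 ratio of mean counts, let-7c-5p over control, was never between -0.98 and 0.98, so the rows appear to be a selection made on the size of this very contrast. Column totals of 40655 to 50083 in the control and 43241 to 83053 with let-7c-5p are sums over that selection, not sequencing depths, which are unknown here. None of the 10 listed macrophage markers and none of the 12 listed housekeeping genes was in the table, so the labelled cell type could not be checked. Of 5 endothelial markers 1 was present, Vwf, with 12 to 17 counts in the control and 19 to 41 with let-7c-5p (log2 fold change 1.11, edgeR, adjusted p = 0.0024), and 0 of the 16 fibroblast, epithelial and lymphocyte markers were present; their part in the results below was not tested. Control replicate 1 and let-7c-5p replicate 5 were each the least like the rest of the own group (mean Spearman correlation over genes 0.899 and 0.841). Let-7c-5p replicate 1, at 0.874, was also below control replicate 1. Without control replicate 1 and let-7c-5p replicate 5, the log2 fold changes given below were -1.11 for Pmaip1 and -0.91 for Eda2r. Both genes stayed called.

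p53 is kept low in unstressed cells and accumulates after DNA damage and other stress, when it raises transcription of genes for cell cycle arrest, repair and cell death. Pmaip1 encodes Noxa, a BH3-only protein that binds the survival protein MCL1 and so promotes mitochondrial apoptosis; it can also be induced without p53, for instance during interferon and stress responses. Eda2r encodes XEDAR, a TNF receptor superfamily member that binds the A2 isoform of ectodysplasin and signals through TRAF proteins to NF-kappaB and JNK. MicroRNAs such as let-7c-5p lower transcripts mainly by pairing of the seed, bases 2 to 8, with sites in 3′ untranslated regions (UTRs).

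The mature let-7c-5p sequence, the agent of the treated group as RefSeq gives it on GRCm38.p6 (plus strand, chr15:85706616-85706637 and chr16:77599672-77599693), is shown with its seed in capitals. The seed was shared by 11 mature mouse microRNA names there, among them let-7a-5p, let-7b-5p and miR-98-5p.
mmu-let-7c-5p: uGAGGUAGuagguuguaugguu

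Matches to the seed differed between the genes. The shortest motif searched, on the transcript strand alone, was the 6mer TACCTC. The 7mer-m8 adds a C before it, the 7mer-A1 an A after it, and the 8mer, CTACCTCA, both, so that each longer motif contains the 6mer. In GENCODE M21 the longest coding transcript of Pmaip1 (2727 bases, 3 exons) had a 3′ UTR of 2187 bases with 1 match, a 7mer-A1, and no 7mer-m8 or 8mer. Of 1335 genes with a 3′ UTR within 10% of that length, 16.0% held a 7mer-A1 and 35.0% a 6mer. A shorter annotated Pmaip1 transcript of 1012 bases, with a 3′ UTR of 707 bases, held 0 matches. In the longest coding transcript of Eda2r (4752 bases, 8 exons) the 3′ UTR of 3634 bases held 0 matches of any class, where 53% of 874 genes with a 3′ UTR of like length held a 6mer.

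This longest coding transcript of Eda2r had its 2 matches elsewhere. One, with the letters of an 8mer, began in the 5′ UTR and the other, a 6mer, lay in the coding sequence, and both are shown in 30-base windows from GENCODE M21 (chromosome X, minus strand, read along the transcript) with the matching letters in capitals. Of 1987 genes with a transcript of like length, 61.9% held at least 1 6mer anywhere. A shorter coding transcript of Eda2r, of 1433 bases with a 3′ UTR of 336 bases, held 3 6mers. They lay in its 5′ UTR and coding sequence, with 0 in its 3′ UTR. A match is only a run of letters.
Eda2r 5′ UTR: tatatttctacCTACCTCAgatgggacatc
Eda2r coding sequence: caactgcacaaaTACCTCtaatgctatctg

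Both genes were lower after let-7c-5p, to 44.0% of the control for Pmaip1 and 46.1% for Eda2r by the edgeR fit. These percentages hold for the scaling of libraries in that fit. Over the alternatives given below, log2 fold changes ran from -1.49 to -0.73 for Pmaip1 and from -1.46 to -0.69 for Eda2r. Neither the percentages nor the SEs allow for the apparent selection of rows on this contrast. Pmaip1 (ENSMUSG00000024521) had 153, 193, 201 and 227 counts in control replicates 1 to 4, and 123, 106, 66, 92 and 63 counts in let-7c-5p replicates 1 to 5. The highest let-7c-5p library, replicate 1, lay below the lowest control library, also replicate 1, so the groups did not overlap. The control mean was 193.5 ± 30.7 counts (SD, n = 4) and the let-7c-5p mean 90 ± 25.8 (SD, n = 5), a log2 fold change of -1.18 ± 0.20 (SE, edgeR quasi-likelihood test, two-sided, adjusted p = 2.0e-04). In bulk RNA, fewer cells with the transcript and less of it per cell cannot be told apart.

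Eda2r (ENSMUSG00000034457), the receptor, had fewer counts, with 35, 30, 30 and 41 counts in control replicates 1 to 4 and 21, 17, 12, 22 and 11 counts in let-7c-5p replicates 1 to 5. Again no let-7c-5p library reached the lowest control libraries, replicates 2 and 3. The means were 34 ± 5.23 counts (SD, n = 4) and 16.6 ± 5.03 (SD, n = 5), a log2 fold change of -1.12 ± 0.26 (SE, edgeR quasi-likelihood test, adjusted p = 0.0013).

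These calls have to be read against the table, in which 99.3% of the tested genes were called in either direction and 48.3% of the tested genes were called lower. In 25.5% of the tested genes each let-7c-5p library lay below each control library in deposited counts, as in Pmaip1 and Eda2r. The 2 calls in a table chosen on the same libraries are therefore no evidence of their own. An exact permutation test of mean log2 CPM, a library-scaled count after trimmed-mean (TMM) scaling, gave p = 0.0079 for each gene, two-sided, the smallest that 4 against 5 libraries allow. That test used the same libraries, so it is no evidence of its own either.

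**Figure D1:**
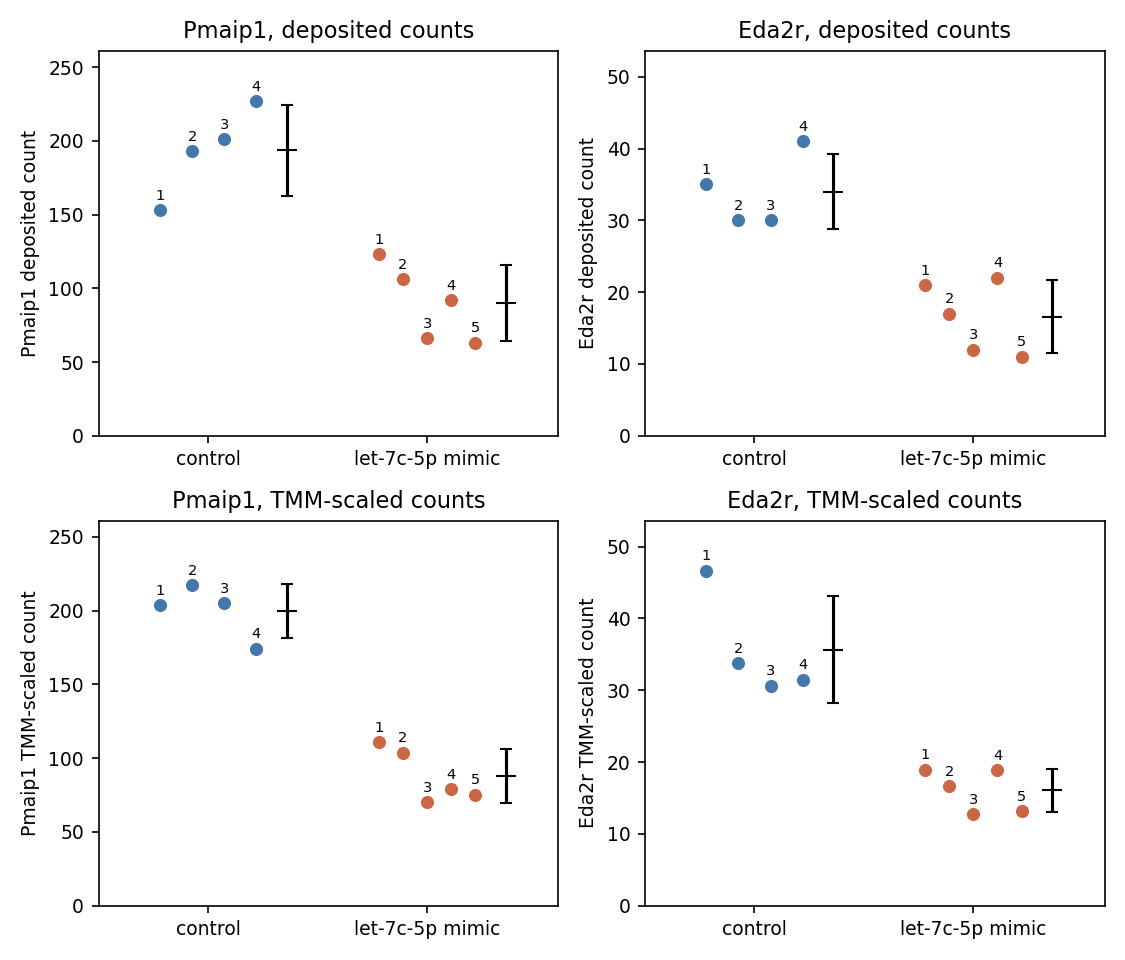
Counts of Pmaip1 (left) and Eda2r (right) in each library, as deposited (top) and after TMM scaling (bottom), with replicate numbers at the points and black bars for mean ± SD (n = 4 control, n = 5 let-7c-5p). The let-7c-5p libraries lie below the control libraries on both scales, at 63 to 123 against 153 to 227 deposited counts for Pmaip1 and 11 to 22 against 30 to 41 for Eda2r.

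Scaling left the groups of both genes apart. After TMM scaling, which divides each count by the library's effective size relative to the mean of the 9 libraries, Pmaip1 lay between 174.2 and 217.3 in the control and between 70.2 and 110.8 with let-7c-5p. Eda2r lay between 30.6 and 46.6 in the control and between 12.8 and 18.9 with let-7c-5p. The coefficients of variation were 9.15% and 20.8% for Pmaip1 and 20.9% and 18.6% for Eda2r, control first.

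The spread within groups was also set beside counting error. For Eda2r, against counts expected from the effective library sizes, the chi-square per degree of freedom, which is about 1 for counting error alone, was 1.32 in the control and 0.542 with let-7c-5p. For Pmaip1, with more counts in each library, it was 1.93 in the control and 3.84 with let-7c-5p.

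Per length, the level of Pmaip1 was above that of Eda2r in both groups. Pmaip1 had 73.4 ± 6.71 TMM-scaled counts per kilobase of its longest coding transcript in the control (SD, n = 4) and 32.2 ± 6.67 with let-7c-5p (SD, n = 5). Eda2r had 7.49 ± 1.57 and 3.38 ± 0.629. With the shortest coding transcript of each gene as the length, the control levels were 198 for Pmaip1 and 24.8 for Eda2r, so the order was the same whichever length was used for both. Neither gene overlapped another annotated gene in GENCODE M21, and no other gene matched either of them at 95% identity over 100 bases or more.

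Whether the genes moved by different factors was asked with their ratio within each library, which no scaling of libraries can change. Control replicates 1 to 4 had 22.9, 15.5, 14.9 and 18.1 Eda2r counts per 100 Pmaip1 counts. Let-7c-5p replicates 1 to 5 had 17.1, 16.0, 18.2, 23.9 and 17.5. The groups overlapped, with control replicate 1 and let-7c-5p replicate 4 the highest of their groups.

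The log2 ratio of Eda2r to Pmaip1 averaged -2.49 ± 0.28 over the control libraries (SD, n = 4) and -2.41 ± 0.22 over the let-7c-5p libraries (SD, n = 5), with 0.5 added to each count. The difference of 0.080 was not past the threshold (exact permutation test, two-sided, p = 0.60). Its 95% interval, from the same test, ran from -0.35 to 0.45 on the log2 scale, so Eda2r may have kept between 0.785 and 1.37 times the share of its control level that Pmaip1 kept. This does not show that both fell by the same factor. Both genes also come from a table that appears chosen on the size of this contrast. The ratio test and its interval do not allow for that selection, which limits how far the 2 decreases could differ.

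**Figure D2:**
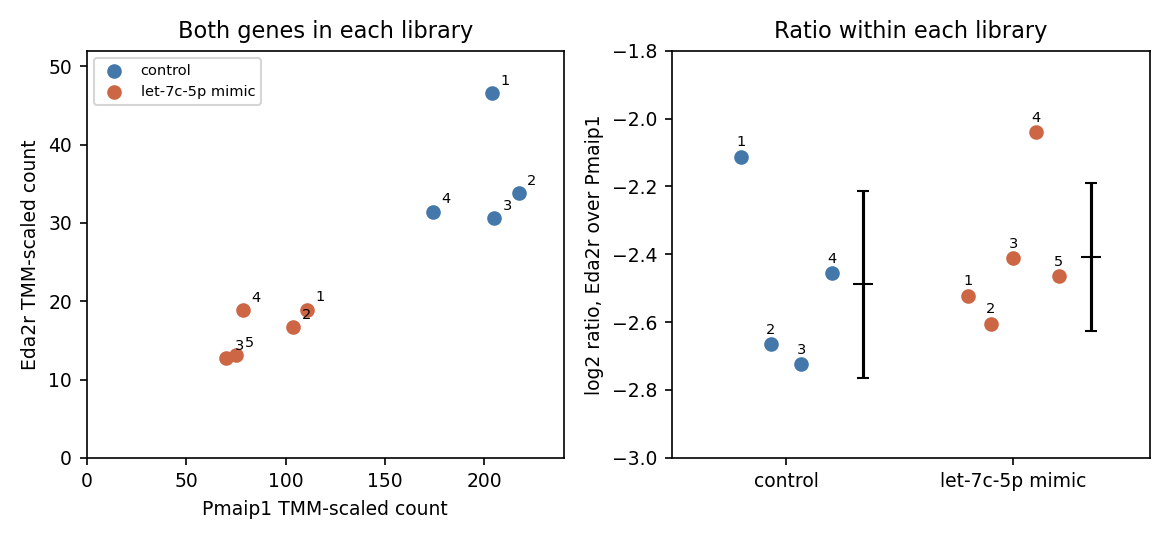
Left, TMM-scaled counts of Eda2r against Pmaip1, 1 point per library with its replicate number; right, the log2 ratio of Eda2r to Pmaip1 counts in each library, with black bars for mean ± SD (n = 4 and n = 5). The groups separate along both count axes, while their ratios overlap, with means of -2.49 in the control and -2.41 with let-7c-5p.

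The order of the libraries within groups was shared in part. In the deposited counts, control replicate 4 was the highest of its group in both genes, and let-7c-5p replicate 5 was the lowest of its group, followed by replicate 3, in both. The effective library sizes after TMM scaling moved the same way. Relative to the mean, control replicate 4 had the largest of its group (1.30). Let-7c-5p replicate 5 had the smallest of its group (0.838), followed by replicate 3 (0.940). Column totals, also relative to their mean, kept control replicate 4 the largest of its group (0.908) but not the let-7c-5p order. There replicate 5 had the largest total (1.505) and replicate 2 the smallest (0.784). After scaling, control replicate 4 was the lowest in Pmaip1 and the second lowest in Eda2r, and the top of the control group was replicate 2 in Pmaip1 and replicate 1 in Eda2r.

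With let-7c-5p, replicate 1 was the highest in both genes after scaling and replicates 3 and 5 the lowest. Let-7c-5p replicate 4 differed between the genes, at 78.8 scaled counts of Pmaip1, the third of 5, and 18.8 of Eda2r, nearly level with replicate 1. The shared order is given as values and ranks only: with 4 and 5 libraries in the groups no correlation was computed, and the part of library size in the order was not tested.

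Among the genes called lower, neither gene stood at an extreme. By size of decrease Pmaip1 ranked 41 and Eda2r 56 of 72, with a median log2 fold change of -1.20 over those genes and a range of -3.96 to -1.05. By mean count Pmaip1 ranked 13 and Eda2r 40. The median over all 149 tested genes was 0.93, since more of them were higher than lower.

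**Figure D3:**
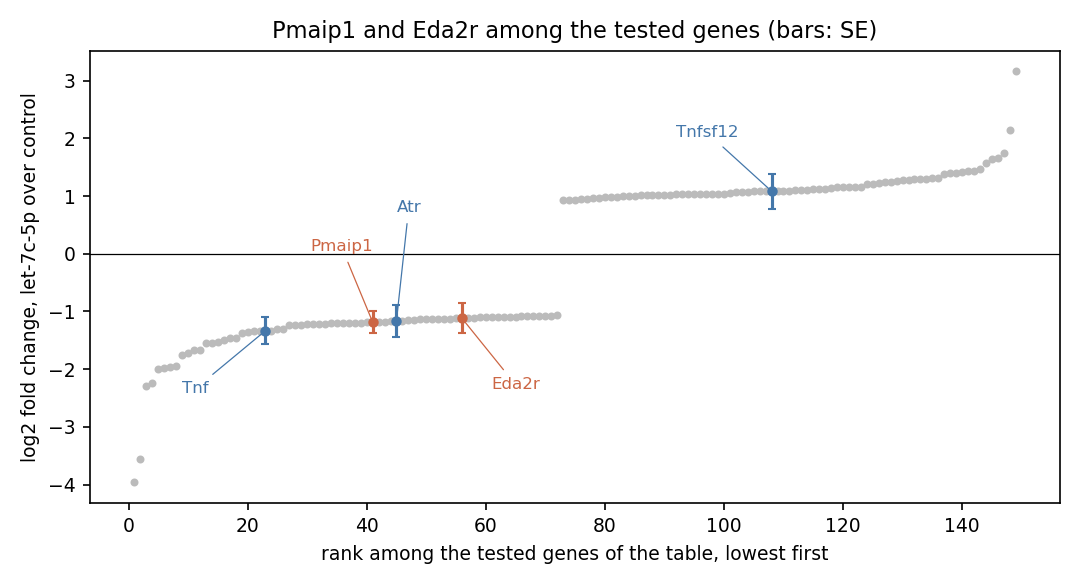
Log2 fold change (let-7c-5p over control, edgeR) of the 149 tested genes in order, with Pmaip1 and Eda2r in red, other tested genes of the p53 and TNF family lists in blue, and bars for SE. Pmaip1 (-1.18) and Eda2r (-1.12) lie on the flat part of the lower genes, and no tested gene lies near 0 in this selected table.

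The listed pathways had few genes in this selected table of 311 genes. The share of all genes that the table holds was not computed, so these counts show neither scarcity nor enrichment. Of 39 listed p53 target genes, 2 were in the table, Pmaip1 and Eda2r themselves. Both were called lower, as were 48.3% of the tested genes. Cdkn1a, Mdm2, Bax and Bbc3 were not analysed here. Of 16 p53 regulators 1 was present, Atr, the kinase of the replication stress response that acts upstream of p53. Atr had 63, 134, 85 and 104 counts in control replicates 1 to 4 and 81, 46, 32, 37 and 33 in let-7c-5p replicates 1 to 5. Control replicate 1 lay below let-7c-5p replicate 1, so the groups overlapped in deposited counts. After TMM scaling they did not, at 79.8 to 150.9 in the control and 31.7 to 72.9 with let-7c-5p. The log2 fold change was -1.16 ± 0.28 (SE, edgeR, adjusted p = 0.0017). The Atr call was lost when libraries were scaled by totals that omit the abundant genes Gm10123, Gm6061 and Rpl17 (log2 fold change -0.69, adjusted p = 0.050). From start to end, introns included, Atr overlaps 3 other annotated genes. Overlap of exons was not computed and the strand setting is unknown, so whether reads are shared was not tested.

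Of 19 BCL2 family genes, which hold the partners and relatives of Noxa, Pmaip1 was the 1 present, and of 17 caspase and apoptosome genes 0 were. The receptor side gave a little more. Of 28 TNF receptor superfamily genes, 2 were in the table, Eda2r and Tnfrsf8, which encodes CD30. Tnfrsf8 went the other way, with 2, 3, 2 and 3 counts in the control and 5, 6, 10, 8 and 7 with let-7c-5p, but was below the filter and not tested.

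Of 18 TNF ligands, 2 were present and called in opposite directions. Tnf, the founding ligand, had 8094 to 10417 counts in the control and 3413 to 4313 with let-7c-5p and was lower (log2 fold change -1.33 ± 0.23, SE, edgeR, adjusted p = 2.8e-04). Tnfsf12, which encodes TWEAK, had 8 to 13 counts in the control and 19 to 26 with let-7c-5p and was higher (1.08 ± 0.30, SE, edgeR, adjusted p = 0.0041). The Tnfsf12 call was lost with column totals (0.71, edgeR, adjusted p = 0.077). Its locus, introns included, overlaps 2 other annotated genes, and whether reads are shared was not tested. Of 10 TNF receptor adaptors 0 were in the table, and Eda, the gene of the ligand of XEDAR, was not analysed here.

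The patterns most like those of Pmaip1 and Eda2r over the 9 libraries were sought among the 148 other tested genes, by the root mean square difference of log2 CPM after each gene was centred on its own mean. Since the table holds genes with a group difference, a small distance mostly means a like fold change, and lower genes as a whole had a median distance of 0.385 from Pmaip1 and 0.434 from Eda2r. Nearest to Eda2r was Pmaip1, at 0.219, while Eda2r was the sixth nearest to Pmaip1.

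Nearest to Pmaip1 was Zc3h12c, at 0.114, a gene of a CCCH zinc finger protein of the Regnase family, with 337 to 587 counts in the control and 164 to 283 with let-7c-5p. Next came Fnbp1l, at 0.184, which encodes an F-BAR protein of actin assembly, and Gm57322, at 0.200. Introns included, Zc3h12c overlaps 1 other annotated gene and Fnbp1l 3, and whether reads are shared was not tested. After Pmaip1, Eda2r was nearest to Zc3h12c, at 0.225, and to Tnfaip3, at 0.240, an inhibitor of NF-kappaB signalling. Their log2 fold changes were -1.18 ± 0.17, -1.18 ± 0.21, -1.46 ± 0.25 and -1.13 ± 0.17 for Zc3h12c, Fnbp1l, Gm57322 and Tnfaip3 (SE, edgeR).

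**Figure D4:**
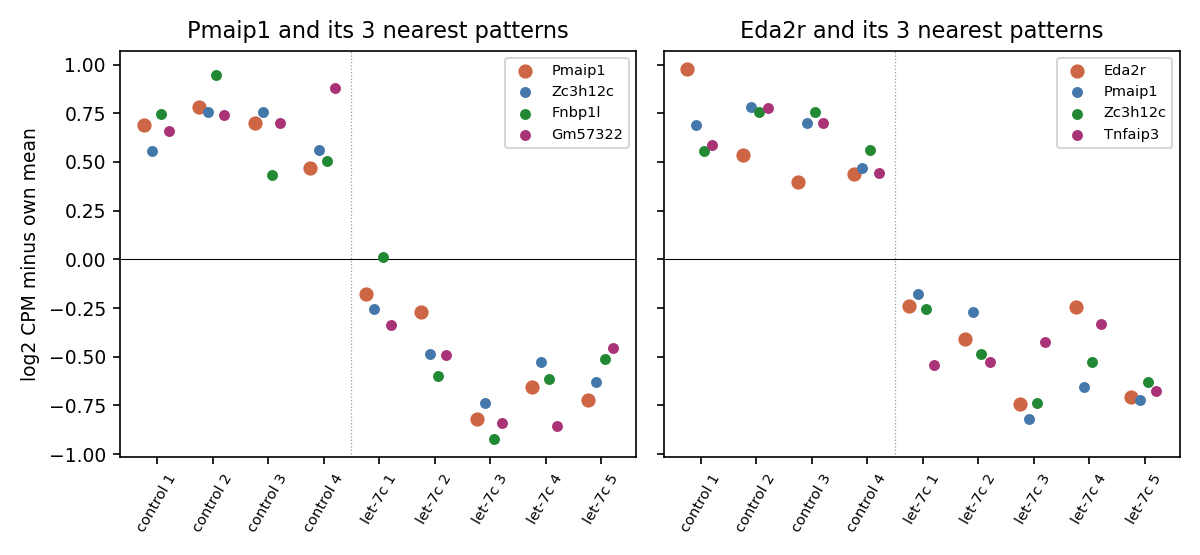
Log2 CPM of Pmaip1 (left) and Eda2r (right) and of their 3 nearest genes in each library, each centred on its own mean over the 9 libraries. Pmaip1 and Zc3h12c lie close in the 9 libraries (distance 0.114), while Eda2r stands above its neighbours in control replicate 1.

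The size of the decrease depended on the scaling of libraries, in both genes alike. With library totals that leave out Gm10123, Gm6061 and Rpl17, the log2 fold change was -0.73 for Pmaip1 and -0.69 for Eda2r (adjusted p = 0.0089 and 0.023, edgeR). That scaling moved the median of all tested genes by 0.42, and these genes by 0.45 and 0.43. With column totals the values were -1.49 and -1.46, with a shift of -0.35 in the median.

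**Figure D5:**
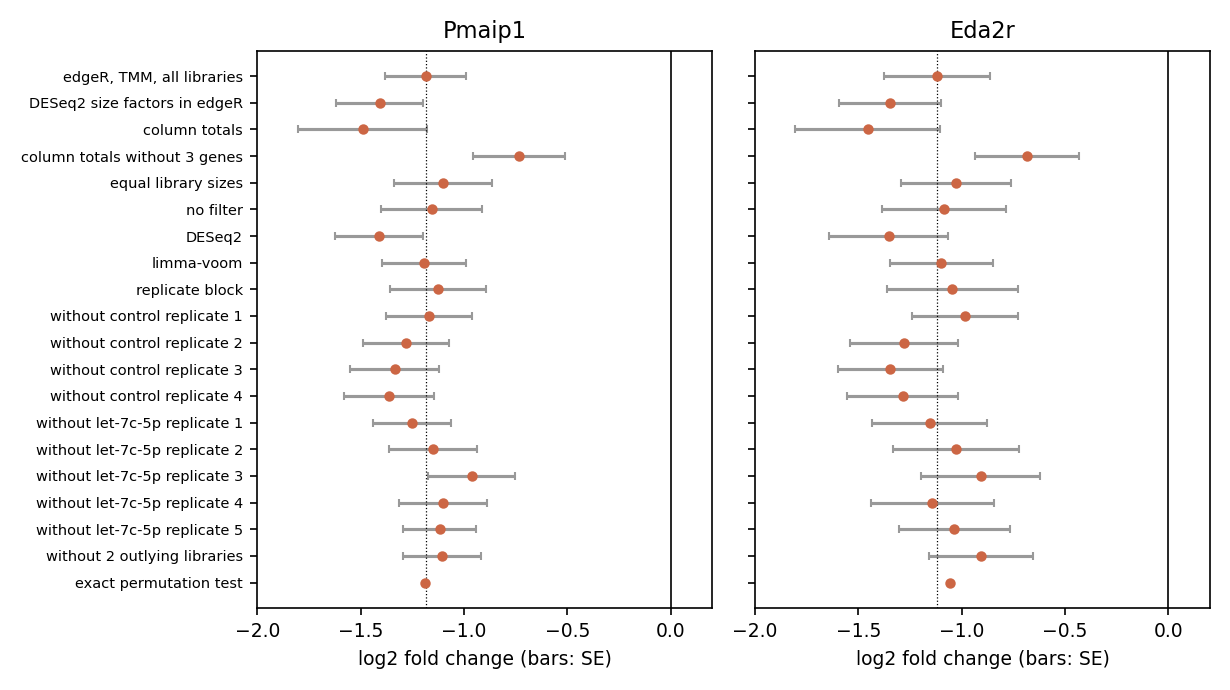
Log2 fold change of Pmaip1 (left) and Eda2r (right) under each setting, with bars for SE where the setting gives one and a dotted line at the edgeR value with TMM scaling. The 3 genes left out of the totals are Gm10123, Gm6061 and Rpl17. The 2 libraries labelled outlying are control replicate 1 and let-7c-5p replicate 5, each only the least correlated of its group. Values run from -1.49 to -0.73 for Pmaip1 and from -1.46 to -0.69 for Eda2r.

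Base composition was alike in both genes. The longest transcripts had a GC content of 42.1% in Pmaip1 and 40.9% in Eda2r, against a median of 42.5% in the 70 lower tested genes found in the annotation and 55.2% in the 74 higher. The part of GC content in the decrease was not tested.

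The promoter of Eda2r was read for motifs because the gene is a known p53 target; that of Pmaip1 is not shown. In RefSeq's window of 250 bases before to 50 after the start (GRCm38.p6, minus strand, chrX:97377160-97377459), the 10-base p53 half-site consensus had 0 matches on either strand, where 8.37% of 27025 promoters held at least 1. The TATA box TATAAA had 1 match, 58 bases before the start, and was held by 14.2% of promoters on either strand. The GC box GGGCGG had 1 match, 92 bases before the start, and was held by 35.9% of promoters. The CCAAT box had 1 match, 47 bases before the start, and was held by 37.9% of promoters. All 3 matches were on the strand of the gene, did not overlap, and are in capitals. No match says only that these letters are not in this window.
Eda2r promoter: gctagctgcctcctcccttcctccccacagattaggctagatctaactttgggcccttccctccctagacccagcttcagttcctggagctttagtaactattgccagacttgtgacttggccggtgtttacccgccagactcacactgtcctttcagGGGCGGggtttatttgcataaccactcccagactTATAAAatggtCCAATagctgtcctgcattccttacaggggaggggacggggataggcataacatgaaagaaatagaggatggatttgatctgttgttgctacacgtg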

How the data were processed

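RNA of 9 libraries was sequenced by the authors, and the deposited values are whole-number read counts per gene, 1 column per library, not normalized. Per the submitters' processing notes the tools were FastQC 0.11.9, HISAT2 2.1.0, HTSeq 0.11.2, DESeq2 1.4.2 and R 4.3.2. No build, annotation, strand setting or rule of gene selection is stated there. Counts were tested with edgeR 4.0.16 in R 4.3.3 (TMM scaling, filterByExpr with a minimum count of 10, quasi-likelihood test, no covariates, Benjamini-Hochberg adjustment over the 149 tested genes, threshold 0.05), after the same code was checked on artificial counts. SEs are the absolute log2 fold change over the square root of F. Log2 CPM used a prior count of 2. Alternatives used DESeq2 1.42.0, limma 3.58.1, other scalings, no filter, a replicate block and leaving out libraries. Genes and lists were chosen with earlier results of these data known. Named genes were Pmaip1, Eda2r, the genes of 7 pathway lists present in the table, and the 3 nearest patterns of each; Vwf was added as a cell type marker, and Gm10123, Gm6061 and Rpl17 are named only for a scaling. No libraries of a group were alike within sampling noise (chi-square per degree of freedom at least 2.51). Sequences came from RefSeq (GRCm38.p6) and GENCODE M21, and near-identical transcripts were searched with blastn 2.17.0. The labels say biological replicates but not whether these were separate cultures, so p-values set group differences against the spread between these libraries. They do not allow for the apparent selection of genes on that same difference.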

Additional observations from a re-analysis of the deposited data

How the results depend on the processing

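Pmaip1 and Eda2r stayed lower and called under each of 19 alternatives, with adjusted p up to 0.015 and 0.023, though both come from a table chosen for a group difference. Leaving out each library gave log2 fold changes of -1.36 to -0.96 for Pmaip1 and -1.34 to -0.91 for Eda2r. Without control replicate 1 and let-7c-5p replicate 5, each the least correlated of its own group (a choice made after seeing the data), they were -1.11 and -0.91. With the replicate number as a block, over replicates 1 to 4, they were -1.12 and -1.04, and 140 genes were called. The labels do not say whether same-numbered libraries are paired. Their correlations of deviations were -0.23 to 0.03 over genes of this selected table, which cannot decide it. The log2 ratio of Eda2r to Pmaip1 differed between groups by -0.012 to 0.21 without single libraries and by 0.094 with the block. It missed the threshold under each of 12 alternatives. The block, with only 4 pairs of libraries, could not have passed the threshold whatever the values.

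Of the table's 148 calls (76 higher, 72 lower), no filter gave 311 of 311 tested genes and DESeq2, which changes the test, the scaling and the filter together, 237 of 311, a difference whose cause was not tested; leaving out each library gave 131 to 164. Column totals gave 30 higher and 72 lower, and 77 and 49 without Gm10123, Gm6061 and Rpl17. The low counts of Eda2r, 11 to 41 per library, limit what its spread can show.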
